A study of Homo sapiens with 9 samples.

Results

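The comparison described here sets the RNA precipitated with either of 2 axon guidance receptors, DCC and Nrp1, against RNA of the lysate from which it was taken. All 9 libraries of the series entered it: 3 of the DCC pulldown (DCC-IP), 3 of the Nrp1 pulldown (Nrp1-IP) and 3 of lysate (Input), with both receptors given the same weight. It asks which mRNAs moved the same way in both pulldowns, as opposed to those that came down with only 1 receptor. The cells were SH-SY5Y, an established human neuroblastoma line used as a model of neurons, and no label gives them a genetic change, a drug or a guidance cue. By their labels, the groups differed in the RNA taken. DCC-IP used a mouse antibody and Nrp1-IP a rabbit antibody on magnetic beads, cycloheximide was in the lysis buffer of all samples, and the cDNA was amplified with a protocol made for single cells.

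DCC is a receptor for Netrin-1, and Nrp1 is the ligand-binding part of the receptor for Sema3A. Both span the plasma membrane of growing axons, where their ligands steer the growth cone and can start the translation of mRNAs stored there. An RNA pulldown recovers what a protein holds directly, through RNA-binding proteins (RBPs) or through ribosomes, together with RNA that clings to beads or antibody. No library of a control antibody was analysed here, so that RNA held by the receptors and RNA clinging to beads or antibody cannot be told apart in these libraries. Sequencing gives shares of a library, so that the amount of RNA recovered is not known, and a share can also fall because another mRNA takes up more of the library.

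Gene counts came to between 8838296 and 11055895 per library, 29.2% to 31.3% of all reads, and 3 counts in a library, the floor used here, correspond on average to 0.262 counts scaled to a common library size (CPM) for DCC-IP, 0.261 for Nrp1-IP and 0.374 for Input. At least 1 count was found on 6652 to 12240 genes per library, with the fewest in DCC-IP replicate 1 (6652) and Input replicate 1 (8169). MAP1B, which encodes a microtubule-associated protein of growing axons, took 40.3% to 52.1% of the counts of a DCC-IP library and 1.58% to 2.44% in the other 6 libraries. Levels below are CPM after TMM scaling, which sets library sizes so that most genes do not differ, and are not divided by gene length. Of 42785 genes in the files, 7628 had enough counts to be tested.

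The labelled cell type was checked against its markers. Of 18 markers of noradrenergic neuroblastoma cells, 13 were tested, and TH and INSM1 had 0 counts in every library. ISL1, a LIM-homeodomain transcription factor of sympathetic neurons, was the most counted of the list and the only marker of it called between pulldowns and Input. Several others were low: STMN2 and HAND1 had at most 22 counts in any library and TBX2 at most 9, and the median log2 fold change of the 13 was -1.09. Of 10 markers of mesenchymal neuroblastoma cells, 5 were tested and none was called by edgeR, with 1 lower both at an unadjusted p under 0.05 and by DESeq2. Of 8 markers of glia and 7 of blood cells, none had more than 22 counts in any library, which is as many as some of the neuroblastoma markers had. The mRNA of DCC had 0 counts in all 9 libraries, which allows a level of up to 3 counts in each. The antibodies bind proteins, so that the receptors' mRNA levels do not test the pulldowns.

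Log2 fold changes are given with their standard error (SE). edgeR's quasi-likelihood test was fitted to all 9 libraries, and a gene was called at a Benjamini-Hochberg adjusted p under 0.05. The mean of both pulldowns exceeded Input for 129 called genes (1.69% of those tested) and was below Input for 340 (4.46%). All 3 Nrp1-IP and all 3 DCC-IP libraries lay above all 3 Input libraries for 128 of the 129 (1.68%), and below them for 263 of the 340 (3.45%). These 128 and 263 genes are called shared below. For a shared gene, the lack of overlap between pulldown and Input libraries follows from this rule and is no further result. Without a test, 521 genes (6.83%) lay above and 505 (6.62%) below Input in every pulldown library. The remaining 77 genes called lower and 1 called higher, MAP1B, had a pulldown library on the other side of an Input library.

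The spread between libraries was large, with a biological coefficient of variation of 1.0, and the number of shared genes moved with the libraries used. Without DCC-IP replicate 2 or 3 there were 85 and 200 shared higher genes. Without Nrp1-IP replicate 1, 2 or 3 there were 37, 31 and 46, and without Input replicate 1, 2 or 3 there were 38, 34 and 49. The shared lower genes numbered 174 and 157 without Nrp1-IP replicate 1 or 2, and 117 and 161 without Input replicate 1 or 2. In every one of the 9 fits that left out 1 library, 22 of the higher and 108 of the lower genes were shared. With the replicate number as a block, shared higher genes rose to 207, including all 128, and the numbers called were 242 higher and 559 lower. Scaling also shifted the split: 27.5% of the called genes were higher with TMM, 23.7% with RLE size factors and 57.8% with library size only. It was 43.7% with DESeq2, where the test differs as well as the size factors. The median log2 fold change of all tested genes was -0.13 with TMM and 0.34 with library size only, and this shift lies under every change given here.

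**Figure D1:**
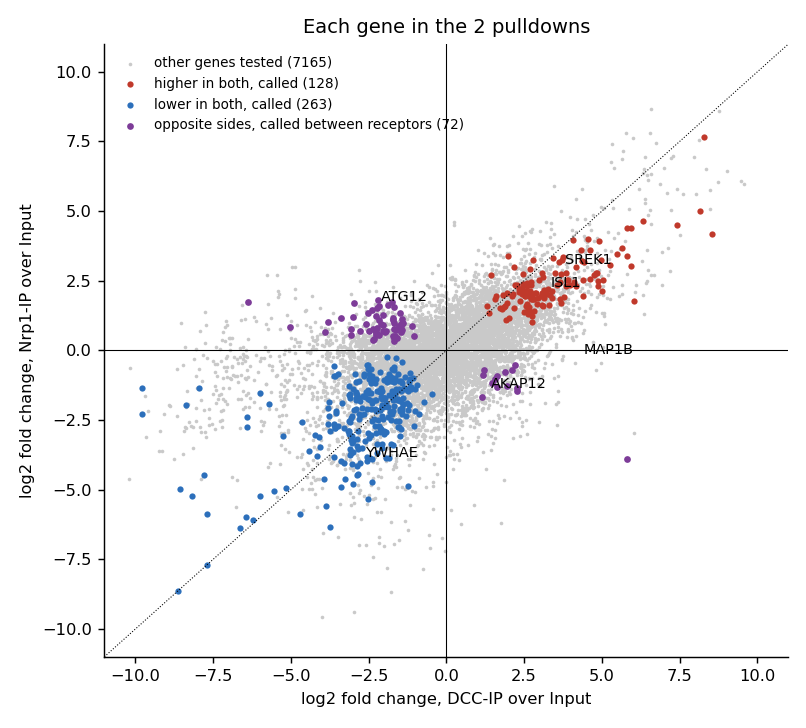
Log2 fold change over Input in DCC-IP (x axis) and in Nrp1-IP (y axis) for each of 7628 tested genes; the 2 axes share the 3 Input libraries. The 128 shared higher genes (red) sit at upper right, mostly below the dotted line of equal change, the 263 shared lower genes (blue) at lower left, and 72 genes on opposite sides of Input that also differed between the pulldowns (purple) lie in the other corners.

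Both comparisons use the same Input libraries, so their values are given side by side only. On its own, DCC-IP had 285 genes called higher than Input (3.74%) and 495 lower (6.49%), and Nrp1-IP had 22 higher (0.288%) and 103 lower (1.35%). The median log2 fold change of the shared higher genes was 3.06 in DCC-IP, with 2.15 in Nrp1-IP, and 115 of the 128 changed more in DCC-IP. Of the 128 shared higher genes, 121 were called in DCC-IP on its own but only 20 in Nrp1-IP on its own, and 18 in each of the 2. Of the 263 shared lower genes, these numbers were 204, 94 and 82. The calls of the shared higher genes thus rest mostly on DCC-IP. The median of the shared lower genes was -2.41 for DCC-IP and -2.11 for Nrp1-IP. Between the pulldowns, 278 of all tested genes were called (3.64%), against 3 of the 128 shared higher genes (2.34%), all 3 lower in Nrp1-IP, and 27 of the 263 shared lower genes (10.3%), of which 20 were higher in Nrp1-IP.

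The higher genes were a small part of every library. Together the 128 genes held 0.253% to 0.333% of the gene counts in Input, 1.77% to 2.60% in DCC-IP, with 1.34% to 1.43% in Nrp1-IP. The 263 lower genes held 39.7% to 42.4% in Input, 11.3% to 14.4% in DCC-IP, with 16.1% to 16.9% in Nrp1-IP. These are shares of all gene counts, of which MAP1B alone took 40.3% to 52.1% in DCC-IP. That lowers the share of every other gene there, so the 2 pulldowns cannot be ranked by these shares. In Input, 68 of the higher genes were under 10 CPM and none was over 1000 CPM. Of the lower genes, 15 were under 10 CPM and 86 were over 1000 CPM. Of all 7628 tested genes, 5309 were under 10 CPM in Input and 226 were over 1000 CPM. The Input level is part of the contrast that chose these genes, so these counts are a description. The nearest pulldown and Input libraries were over 2 times apart for 88 of the 128 higher and 109 of the 263 lower genes.

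Where no group was at 0 in all of its libraries, the log2 fold change of both pulldowns over Input ran from 1.37 to 6.56 over 127 higher genes and from -6.78 to -0.91 over 256 lower genes. Of the other genes, GCC2, which encodes a golgin of the trans-Golgi network, had 0 counts in Input and 1.18 to 6.09 CPM in the pulldowns. Its mean was at least 9.90-fold higher in DCC-IP and 6.42-fold higher in Nrp1-IP, taking the floor as 3 counts per library. STAMBPL1, a deubiquitinase, had 0 counts in all 6 pulldown libraries and 10.2, 2.87 and 1.13 CPM in Input. Its mean was at least 18.0-fold lower in DCC-IP and 18.1-fold lower in Nrp1-IP by the same floor. Both genes were picked with their values in view, and their calls held in 2 and 6 of the 9 fits that left out 1 library. GCC2 was called only without DCC-IP replicate 1 or 3, and the call of STAMBPL1 was lost without Nrp1-IP replicate 2, Input replicate 1 or Input replicate 2, with adjusted p up to 0.106 and 0.122.

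Of the shared higher genes with a mean of at least 50 CPM, SREK1 had the smallest p. It encodes a regulator of pre-mRNA splicing. SREK1 reached 165, 177 and 187 CPM in DCC-IP, with 129, 83.9 and 108 CPM in Nrp1-IP, against 11.9, 11.5 and 23.2 CPM in Input. Every pulldown library was well above every Input library, and the log2 fold change was 3.14 (SE 0.44, edgeR adjusted p = 0.00215). CNOT1, the scaffold of the CCR4-NOT complex that removes poly(A) tails, reached 385, 215 and 127 CPM in DCC-IP, with 94.6, 170.1 and 118 CPM in Nrp1-IP, against 17.9, 22.6 and 16 CPM in Input. CNOT1 changed by a log2 fold of 3.22 (SE 0.49, edgeR adjusted p = 0.00323), and the pulldowns overlapped each other but not Input.

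ISL1, the sympathetic transcription factor named among the markers, had the most reads in the pulldowns of all 128 higher genes, with no account of gene length. It measured 3976, 2228 and 1214 CPM in DCC-IP, with 1006, 1335 and 1086 CPM in Nrp1-IP and 287, 373 and 231 CPM in Input. The means were 2473 ± 1397, 1142 ± 172 and 297 ± 71.7 CPM (SD, n = 3 each). DCC-IP spread over the widest range and overlapped Nrp1-IP, while both stayed above Input, with a log2 fold change of 2.50 (SE 0.40, edgeR adjusted p = 0.00404). TCF4, a basic helix-loop-helix transcription factor of neurons, was next in reads and had 1587, 1274 and 851 CPM in DCC-IP, with 778, 898 and 692 CPM in Nrp1-IP and 267, 269 and 290.5 CPM in Input. TCF4 was higher by 1.84 on the log2 scale (SE 0.30, edgeR adjusted p = 0.00434).

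Several of the higher genes act in DNA replication and cell division. MCM7, a subunit of the replicative helicase, had 659.5, 494 and 752 CPM in DCC-IP, with 305, 382 and 347 CPM in Nrp1-IP and 113, 73.3 and 102 CPM in Input. Its libraries were ordered DCC-IP, Nrp1-IP, Input with no overlap, and its log2 fold change was 2.28 (SE 0.33, edgeR adjusted p = 0.00222). KNTC1, a kinetochore protein, showed the same order, with means of 657 ± 169, 333 ± 39.3 and 112 ± 20.6 CPM (SD, n = 3 each) and a log2 fold change of 2.07. PCNT, which encodes the centrosome scaffold pericentrin, had 269.7, 74.6 and 121 CPM in DCC-IP, with 27.9, 22.1 and 31.9 CPM in Nrp1-IP and 5.04, 3.35 and 5.80 CPM in Input. It rose by 3.78 on the log2 scale over both pulldowns and was also lower in Nrp1-IP than in DCC-IP, with a difference of -2.50 (SE 0.57, edgeR adjusted p = 0.0323). In MCM7 and KNTC1 the difference between the pulldowns did not pass the test (adjusted p = 0.212 and 0.166).

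RNF19A, an E3 ubiquitin ligase, had 141, 103 and 51.1 CPM in DCC-IP, with 69.3, 52.7 and 56.1 CPM in Nrp1-IP and 4.26, 7.54 and 2.77 CPM in Input. Its log2 fold change of 3.97 (SE 0.59, edgeR adjusted p = 0.00282) was the largest of the 8 higher genes named for their p. All 8, from SREK1 to TCF4, were shared in each of the 9 fits that left out 1 library. GNAS, PON2 and BRD8, named for their level in the pulldowns, were less firm. GNAS, the alpha subunit of the stimulatory G protein, had 1919.8, 799.7 and 367 CPM in DCC-IP, with 471, 453 and 312 CPM in Nrp1-IP and 161, 192 and 123 CPM in Input, with an adjusted p of 0.0331 from edgeR. It was no longer called without Nrp1-IP replicate 1 or 2 or without any one of the Input libraries, where its adjusted p ran from 0.0766 to 0.101. PON2, a paraoxonase, and BRD8, a bromodomain protein of a histone acetyltransferase complex, were each called in 2 of the 9 fits. PON2 was called only without DCC-IP replicate 1 or 3 and BRD8 only without DCC-IP replicate 3 or Input replicate 1, and their adjusted p reached 0.112 and 0.138 in the other fits.

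**Figure D2:**
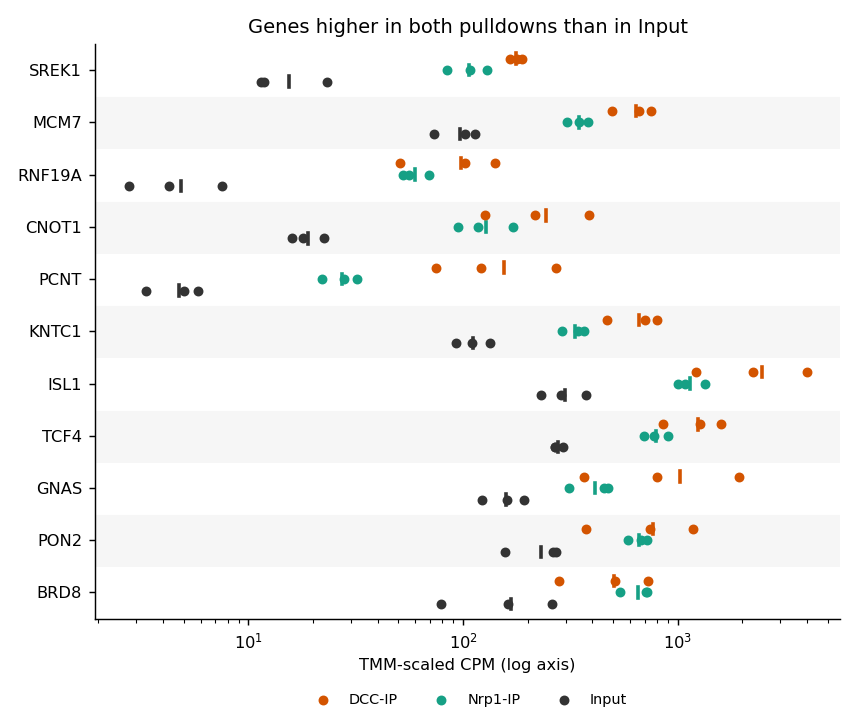
Level (TMM-scaled CPM, log axis) of 11 shared higher genes in each of the 9 libraries; points are libraries, ticks are group means. By the rule that chose the genes, the 6 pulldown libraries lie above the 3 Input libraries for each. DCC-IP is spread widest for GNAS (367 to 1919.8 CPM) and PCNT (74.6 to 269.7 CPM).

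DCC-IP replicate 1, the library with the fewest genes detected, was the highest DCC-IP library for 99 of the 128 shared higher genes, and for 32.1% of all tested genes. DCC-IP replicate 3, with 11259 genes detected, was the highest for 9 of the 128. Without DCC-IP replicate 1 alone, 159 genes were shared higher, including 112 of the 128, and without Input replicate 1 alone 38 were, including 36. Without both, a setting chosen after the data were seen, 48 genes were shared higher, including 41 of the 128, and 177 were shared lower. The part of library complexity in the height of these genes was not tested.

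The shared lower genes were led by YWHAE, which encodes the 14-3-3 epsilon adaptor of phosphorylated proteins. It measured 32377, 29355 and 30040.3 CPM in Input, against 4145, 3446 and 5004 CPM in DCC-IP, with 1705, 1839.9 and 1581 CPM in Nrp1-IP. The 3 groups were apart, and the log2 fold change of both pulldowns over Input was -3.51 (SE 0.19, edgeR adjusted p = 5.67e-06). YWHAE was also lower in Nrp1-IP than in DCC-IP, with a difference of -1.30 (SE 0.23, edgeR adjusted p = 0.00823). It was the gene with the smallest p of the whole comparison.

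3 lower genes encode nuclear proteins that were among the most counted of all shared lower genes in Input. ANP32E, a chaperone of the histone variant H2A.Z, had 32379, 32283 and 20968 CPM in Input, 5956, 5909 and 4611 CPM in DCC-IP, with 5300.1, 5406 and 4148 CPM in Nrp1-IP. Both pulldowns overlapped at the same low level, with a log2 fold change of -2.45 (SE 0.21, edgeR adjusted p = 0.000111). SET, a histone chaperone and inhibitor of protein phosphatase 2A, fell by 2.52 on the log2 scale, from 26446 ± 7988 CPM in Input to 3974 ± 1079 in DCC-IP, with 5342 ± 613 in Nrp1-IP (SD, n = 3 each). CBX5, the heterochromatin protein HP1 alpha, had 26907, 27957 and 14857 CPM in Input, 3304, 3648 and 1814 CPM in DCC-IP, with 11334, 8013 and 7321 CPM in Nrp1-IP. The fall over both was -2.19 on the log2 scale (SE 0.28, edgeR adjusted p = 0.00136), and DCC-IP fell further than Nrp1-IP, with a difference of 1.61 between them (edgeR adjusted p = 0.0256).

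Others among the most strongly lowered genes encode cytoskeletal and signalling proteins. CDC42, a small GTPase of growth cone steering, had 3613, 3522 and 2896 CPM in Input, 188, 282 and 359 CPM in DCC-IP, with 529, 415 and 507 CPM in Nrp1-IP. All 6 pulldown libraries were far below Input, and the log2 fold change was -3.19 (SE 0.26, edgeR adjusted p = 7.98e-05). DPYSL2, also known as CRMP2, a tubulin-binding protein of the Sema3A pathway, measured 23064, 25889 and 15074 CPM in Input, 3595, 2085 and 2866 CPM in DCC-IP, with 6825, 3719.6 and 4295 CPM in Nrp1-IP. DPYSL2 was lower by a log2 fold change of -2.51 (SE 0.27, edgeR adjusted p = 0.000375). CNN3, an actin-binding calponin, fell from 684, 775 and 1162 CPM in Input to 66.0, 55.7 and 55.3 CPM in DCC-IP, with 16.9, 24.5 and 13.3 CPM in Nrp1-IP. With a log2 fold change of -4.73 (SE 0.32, edgeR adjusted p = 2.88e-05) it changed most of the lower genes named for their p.

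Regulators of transcription and splicing were also among the lower genes with the smallest p. TWIST1, a basic helix-loop-helix transcription factor, had 1098, 991 and 1523 CPM in Input, 206, 123 and 202 CPM in DCC-IP, with 82.8, 77.6 and 61.0 CPM in Nrp1-IP, a log2 fold change of -3.40. TRA2A, an activator of splicing, had 3285, 3964 and 4504 CPM in Input, 873, 509 and 846 CPM in DCC-IP, with 265, 285 and 231 CPM in Nrp1-IP, a log2 fold change of -3.16. Nrp1-IP lay below DCC-IP in every library for TWIST1 and TRA2A, and the difference passed the test for TRA2A only (adjusted p = 0.0182, against 0.0773 for TWIST1). The antisense gene ZBED5-AS1 was also lower, from 769.6 ± 187 CPM in Input to 63.4 ± 9.26 in DCC-IP, with 54.6 ± 18.9 in Nrp1-IP (SD, n = 3 each). The strand setting of the counting is not given in the sources used here, so that reads of ZBED5-AS1 and of the gene it overlaps cannot be told apart. Each of these 10 lower genes was shared in all 9 fits that left out 1 library.

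**Figure D3:**
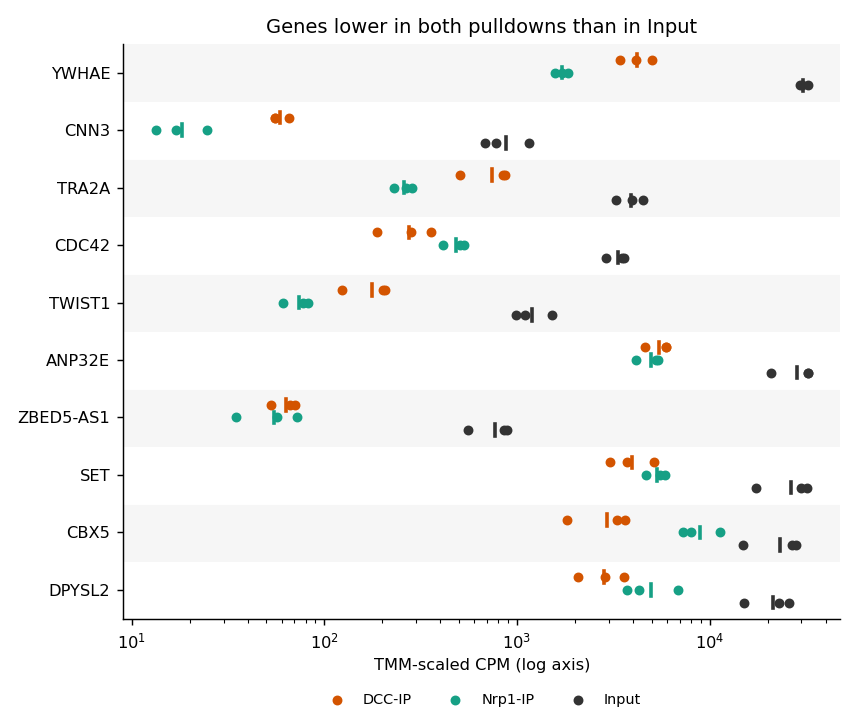
Level (TMM-scaled CPM, log axis) of 10 shared lower genes in each of the 9 libraries; points are libraries, ticks are group means. By the rule that chose the genes, Input lies above all 6 pulldown libraries for each. Nrp1-IP lies below DCC-IP for YWHAE and above it for CBX5.

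The mRNA of the receptor Nrp1 was itself among the shared lower genes, at a low level. NRP1 had 25.6, 38.3 and 29.5 CPM in Input, 0, 2.08 and 1.6 CPM in DCC-IP, with 5.15, 7.65 and 2.71 CPM in Nrp1-IP. The change of NRP1 was -3.61 on the log2 scale (SE 0.85, edgeR adjusted p = 0.0301). The call was lost without any one of the Nrp1-IP or Input libraries, with an adjusted p from 0.0601 to 0.11, and with library size only. MAP1B, called higher over the mean of both pulldowns with a log2 fold change of 1.84 (edgeR adjusted p = 0.00344), was not a shared gene. It had 618511, 461916 and 290328 CPM in DCC-IP, but 22184, 21232 and 12998 CPM in Nrp1-IP and 30010.5, 27108 and 20783 CPM in Input. The log2 fold change was 4.14 in DCC-IP but -0.47 in Nrp1-IP, so that the pooled value came from 1 receptor.

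Lists of genes by function were counted next, each against the background of all tested genes, of which 1.68% were shared higher and 3.45% shared lower. The lists are described by counts and medians only. The count filter asked for 3 libraries at its minimum, and 1189 of the tested genes would not have met it without Input and 3742 not without the pulldowns, so that the direction of such genes can be set in part by the filter. Among them were 18 of the 263 shared lower and 30 of the 128 shared higher genes.

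Among genes of the translation machinery, more were called lower than higher. Of 79 cytosolic ribosomal protein genes, 58 were tested, 9 were called lower and none higher, and 6 were shared lower (10.3%). At an unadjusted p under 0.05, 26 were lower and none was higher, and DESeq2 called 18 lower and none higher. Their median log2 fold change was -2.09, and it was -1.6 with library size only, but 23 of the 58 met the count filter only with Input and 27 only with the pulldowns. Summed over the list, they made up 2168.5 to 3084 CPM in Input, 517 to 897 CPM in DCC-IP, with 1704 to 2133 CPM in Nrp1-IP. After TMM scaling the summed level was thus lower in all 6 pulldown libraries, but the highest Nrp1-IP sum was just below the lowest Input sum. Against library size only, TMM raised the levels of every Input library and lowered those of every Nrp1-IP library. The order of the Nrp1-IP and Input sums therefore depends on the scaling. RPS25, a protein of the small subunit, had 207, 139 and 108 CPM in Input, 16, 17.7 and 9.64 CPM in DCC-IP, with 1.50, 5.90 and 7.53 CPM in Nrp1-IP, with a log2 fold change of -4.15 (SE 0.52, edgeR adjusted p = 0.00119). The number of shared members was 1 to 9 over the fits that left out 1 library, and 3 without DCC-IP replicate 1 and Input replicate 1. Among 41 translation factors, 4 were shared lower and 1 shared higher, with 2 to 6 and 0 to 4 over the fits that left out 1 library. EIF5A, a factor that frees stalled ribosomes, fell from 1066 ± 207 CPM in Input to 86.1 ± 33.8 in DCC-IP, with 172 ± 39.4 in Nrp1-IP (SD, n = 3 each). EIF2S3, the gamma subunit of initiation factor eIF2, fell from 16375 ± 7206 to 2181 ± 684 and 4713 ± 774 CPM, and both were shared in all 9 fits. Of the other lower factors, EIF3H lost its call without Nrp1-IP replicate 2 or Input replicate 1, with an adjusted p up to 0.130, and EEF1A1 was shared only without DCC-IP replicate 1 or 3, with an adjusted p up to 0.129 otherwise. Genes with near-identical copies, such as SET, EIF5A, EIF2S3 and the ribosomal protein genes, can have reads split or dropped in the counting, and their values are uncertain to that extent.

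Mitochondrially encoded mRNAs, which are made and translated inside mitochondria, were few in every library. Of 11 tested genes, 9 met the count filter only with Input, so that a negative change was favoured by the filter. Their median log2 fold change was -5.35, 6 were called lower and 4 were shared lower (36.4%), with 2 to 7 over the fits that left out 1 library. MT-CO3, a subunit of cytochrome c oxidase, had 9.30, 35.4 and 103 CPM in Input, 0, 0 and 0.624 CPM in DCC-IP, with 0.0936, 0.646 and 1.73 CPM in Nrp1-IP. Input replicate 3 was well above the other Input libraries, and the log2 fold change was -6.78 (SE 1.18, edgeR adjusted p = 0.00627). MT-ATP6, a subunit of ATP synthase, showed the same pattern, with 16.9, 17.7 and 55.8 CPM in Input and at most 0.833 CPM in any pulldown library. Both were shared in all 9 fits that left out 1 library, whereas MT-ATP8 and MT-ND1, the other shared members, were shared in 2 and 3 of them, with adjusted p up to 0.130 and 0.204. The summed level of the 13 listed genes was 63.1 to 856 CPM in Input, 0.339 to 77.2 CPM in DCC-IP, with 0.748 to 31.1 CPM in Nrp1-IP, so that the ranges of Input and DCC-IP overlapped. Of 37 nuclear-encoded respiratory chain genes, 2 were shared lower (5.41%), with 1 or 2 over the fits that left out 1 library, and the median was -1.07. Of 42 mitochondrial ribosomal protein genes, edgeR called none, with 2 higher and 6 lower at an unadjusted p under 0.05, and DESeq2 called 2 higher and 3 lower.

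mRNAs of the endoplasmic reticulum (ER) machinery, which brings secreted and membrane proteins into the ER, were shared lower in 6 of 32 genes (18.8%), and none was shared higher. STT3A, the catalytic subunit of an oligosaccharyltransferase, had 697, 748 and 661 CPM in Input, 61.6, 104 and 104 CPM in DCC-IP, with 109, 215 and 150.3 CPM in Nrp1-IP, a log2 fold change of -2.56 (SE 0.31, edgeR adjusted p = 0.000971). SPCS3, a signal peptidase subunit, fell by 2.30 on the log2 scale, and CALR, the chaperone calreticulin, by 3.67. CALR was at 2134 CPM in Input replicate 3, against 468 and 323 CPM in the other Input libraries. SRPRB, a subunit of the receptor for the signal recognition particle, fell in both pulldowns but far less in Nrp1-IP, with 3715 ± 538 CPM in Input, 306 ± 93.9 in DCC-IP, with 2523 ± 661 in Nrp1-IP (SD, n = 3 each), and without Input replicate 1 its Nrp1-IP and Input libraries overlapped. With library size only, CALR and SRPRB were no longer shared. The summed level of the list was 7575 to 11851.5 CPM in Input, 1427 to 1901 CPM in DCC-IP, with 4317 to 5698 CPM in Nrp1-IP. Over the fits that left out 1 library, 4 to 7 members were shared lower.

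Of 38 hnRNP and SR splicing proteins, 6 were shared lower (15.8%) and 1 was shared higher. TRA2A, described above, was among them. HNRNPH1, an hnRNP that binds G-rich RNA, had 13153, 14595 and 11649.7 CPM in Input, 7967, 5479 and 5672 CPM in DCC-IP, with 1651, 2675 and 1612 CPM in Nrp1-IP. Its log2 fold change was -1.89 (edgeR adjusted p = 0.00119), and it was lower in Nrp1-IP than in DCC-IP, with a difference of -1.69 (edgeR adjusted p = 0.00649). PCBP2, a poly(C)-binding protein, fell from 313, 302 and 755 CPM in Input to 80.1, 81.3 and 93.5 CPM in DCC-IP, with 45.5, 63.1 and 58.7 CPM in Nrp1-IP, a log2 fold change of -2.73 (edgeR adjusted p = 0.00142). The member that was shared higher was SON, a splicing cofactor of nuclear speckles, with a log2 fold change of 2.11 (edgeR adjusted p = 0.0136), and its call was lost without Nrp1-IP replicate 2 or Input replicate 2 or 3 (adjusted p up to 0.0793). Over the fits that left out 1 library, 3 to 8 members were shared lower.

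Of 30 RBPs of neuronal RNA granules, none was called lower by edgeR and AGO2 alone was called higher, while 3 were lower at an unadjusted p under 0.05 and by DESeq2. AGO2, the Argonaute that cuts mRNAs matched by a small RNA, had 385, 157 and 52 CPM in DCC-IP, with 44.2, 42.7 and 26.5 CPM in Nrp1-IP and 5.68, 8.73 and 5.67 CPM in Input. Its log2 fold change was 3.69 (SE 0.67, edgeR adjusted p = 0.00772), with DCC-IP replicate 1 far above the other libraries, and AGO2 was shared in all 9 fits that left out 1 library.

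The cytoskeletal lists held shared lower genes and no shared higher gene. Of 41 actin cytoskeleton genes, 4 were shared lower (9.76%) and none shared higher. CAPZA1, which caps actin filaments, fell from 17307, 14816 and 12647 CPM in Input to 4013, 2612 and 2277 CPM in DCC-IP, with 2535, 2856 and 2691 CPM in Nrp1-IP, a log2 fold change of -2.40 (SE 0.23, edgeR adjusted p = 0.000173). ARPC4, a subunit of the Arp2/3 complex that starts actin branches, fell to 829 ± 197 CPM in DCC-IP but only to 5167 ± 1062 in Nrp1-IP, from 9891 ± 1009.7 in Input (SD, n = 3 each). ACTB, beta-actin, had 3057, 3025 and 35963 CPM in Input, 875, 282 and 1954 CPM in DCC-IP, with 95.7, 117 and 303 CPM in Nrp1-IP. Input replicate 3 was far above the other Input libraries for ACTB, and the call held without it, but ACTB and ARPC4 were no longer shared with library size only. The median of the actin list was -0.30 with TMM and 0.18 with library size only, so its direction depends on the scaling, while 4 to 9 members were shared lower over the fits that left out 1 library. Of 34 tubulin and microtubule genes, DPYSL2 and TUBB3, the neuronal beta-tubulin, were shared lower (5.88%). TUBB3 had 7.10 to 27.6 CPM in Input and 1.02 to 3.40 CPM in the pulldowns, and its call was lost without any one of the Nrp1-IP or Input libraries, with an adjusted p up to 0.131, and with library size only. Of 19 axon guidance ligands and receptors, NRP1 was the only shared gene.

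Smaller numbers were shared in the lists for other cytoplasmic functions. Of 46 small GTPases, CDC42, ARF6 and RAP2C were shared lower (6.52%) and none was higher. ARF6, which acts in membrane recycling, fell from 384 ± 54.7 CPM in Input to 50.8 ± 11.2 in DCC-IP, with 118 ± 37.9 in Nrp1-IP (SD, n = 3 each). Of 27 proteasome subunits, PSMD12 and PSMB4 were shared lower (7.41%), with log2 fold changes of -2.62 and -2.94 and adjusted p of 0.000173 and 0.00142 from edgeR. Of 38 chaperones, BAG4, a co-chaperone of Hsp70, was the only shared gene, with 3616, 3622 and 2086 CPM in Input, 263, 394 and 416 CPM in DCC-IP, with 1269, 1276 and 1273 CPM in Nrp1-IP. Of 16 glycolysis genes, PFKM, the muscle-type phosphofructokinase, was shared higher, from 6.39 ± 3.63 CPM in Input to 53.4 ± 16.6 in DCC-IP, with 43.7 ± 11.4 in Nrp1-IP (SD, n = 3 each). It was higher by 2.91 on the log2 scale (SE 0.59, edgeR adjusted p = 0.0136). Another member of the list was called lower but not shared, 3 were lower at an unadjusted p under 0.05, and the median of the list was -0.87. Of 125 genes of the SLC transporter families, 2 were shared higher and 5 shared lower (4.00%), with 0 to 3 and 2 to 8 over the fits that left out 1 library, the latter with SLC12A2, a sodium, potassium and chloride cotransporter, at a log2 fold change of -1.52.

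The lists for the nuclear pore, chromatin and cell division had positive medians, at 0.46, 0.92 and 0.44, whereas that of the splicing proteins was -0.90. Of 44 genes of nuclear transport and the nuclear pore, 5 were shared higher (11.4%) and 2 shared lower (4.55%). NUP188, a scaffold of the pore, had 38.4, 7.30 and 11 CPM in DCC-IP, with 11.3, 17.5 and 10.2 CPM in Nrp1-IP and 0.646, 0.598 and 1.13 CPM in Input. Its log2 fold change was 4.29 (edgeR adjusted p = 0.0140), and the call was lost without Input replicate 1 or 2 (adjusted p = 0.0661 and 0.0800). The others were NUP153, NUP214 and the exportins XPO5 and XPO6, with log2 fold changes from 2.06 to 3.40 and adjusted p from 0.0273 to 0.0485. None of these 4 kept its call in every fit that left out 1 library, with adjusted p up to 0.111 for NUP153, 0.124 for NUP214, 0.133 for XPO5 and 0.135 for XPO6. In the fits that left out 1 library, 0 to 6 members were shared higher and 0 to 4 lower, and 1 was higher without DCC-IP replicate 1 and Input replicate 1. The summed level of the list was not higher in the pulldowns, at 8798 to 11601 CPM in Input, 3112 to 4372 CPM in DCC-IP, with 9525 to 10869.5 CPM in Nrp1-IP.

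Of 58 chromatin remodelers and histone modifiers, 15 lay above Input in all 6 pulldown libraries, 25.9% against 6.83% of all tested genes, and 1 lay below. The test called CHD7, a remodeler of the CHD family, alone among the 15, with a log2 fold change of 3.06 (edgeR adjusted p = 0.0393) and only in the fits without DCC-IP replicate 1 or 3 among the 9 that left out 1 library, with an adjusted p up to 0.136 in the others. The other 14, among them the methyltransferases SETD2 and KMT2C, the remodeler subunits ARID1A and PBRM1 and the demethylases KDM5A and KDM5B, had adjusted p from 0.0578 to 0.227. At an unadjusted p under 0.05, 19 members were higher and 5 lower, and DESeq2 called 15 higher and 4 lower. The median of the list was 0.92, and 1.37 with library size only, but 32 of the 58 met the count filter only with the pulldowns. The summed level of the list was not higher in the pulldowns, at 5999 to 7993 CPM in Input, 2985 to 4930 CPM in DCC-IP, with 5337 to 6008 CPM in Nrp1-IP. Of 2 members called lower, SMARCE1, a subunit of the BAF remodeling complex, was shared, with 262, 230.3 and 259 CPM in Input, 35.1, 52 and 52.6 CPM in DCC-IP, with 94.1, 93.4 and 75.3 CPM in Nrp1-IP (log2 fold change -1.97, edgeR adjusted p = 0.00393).

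Of 47 genes of mitosis and DNA replication, 4 were shared higher (8.51%), MCM7, ANLN, TOP2A and CENPF, and 2 were shared lower (4.26%), BIRC5 and RFC5. ANLN, TOP2A and CENPF, which act in cytokinesis, in the untangling of DNA and at the kinetochore, had adjusted p between 0.0359 and 0.0411. Of the 4, only MCM7 kept its call in every fit that left out 1 library, and the number shared higher over these fits was 1 to 4 and lower 0 to 2. The summed level of the list was not higher in the pulldowns, at 15618 to 17518 CPM in Input, 3502 to 5219 CPM in DCC-IP, with 11285 to 15831 CPM in Nrp1-IP. RFC5 was shared in 2 of these fits, and neither RFC5 nor BIRC5 was shared with library size only. Of 12 nuclear-retained noncoding RNAs, edgeR called none, with 2 higher and none lower both at an unadjusted p under 0.05 and by DESeq2, and their median was 1.98 in DCC-IP but -0.11 in Nrp1-IP. Of 260 zinc finger genes with a ZNF symbol, 5 were shared higher (1.92%) and 3 shared lower (1.15%), with 0 to 10 and 0 to 7 over the fits that left out 1 library, and their median was 0.44. Of 795 genes named only by a genomic clone, most of them noncoding, none was shared higher and 24 were shared lower (3.02%), with 4 to 39 lower over the fits that left out 1 library, and their median was -0.28 with TMM and 0.16 with library size only. Without coordinates or the strand setting, a clone-named gene that shares reads with a named gene cannot be told apart from it. CTC-425F1.4, for instance, had 543, 347 and 2178 CPM in Input, close to CALR at 468, 323 and 2134 CPM. By gene type, 117 of the 128 higher and 219 of the 263 lower genes were protein-coding in the RefSeq list, as were 6027 of all 7628 tested genes.

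With the replicate number as a block, the counts of several lists moved by over 1.5 times. Genes called lower were 15 of the ribosomal proteins, in place of 9, all 11 of the mitochondrially encoded genes, in place of 6, 8 of the small GTPases, in place of 4, 18 of the SLC genes, in place of 10, and 45 of the clone-named genes, in place of 27. Chromatin genes had 5 called higher and 4 lower, in place of 1 and 2, and zinc finger genes 10 and 8, in place of 5 and 3. Nuclear transport had 5 called lower, in place of 3, and glycolysis 2, in place of 1. Genes called higher were 3 of the translation factors and 3 of the splicing proteins, in place of 1 each, 2 of the tubulin and microtubule genes, in place of 1, and 2 of the nuclear-retained RNAs, 1 chaperone, 1 ER gene and 6 clone-named genes, in place of none. RNA granule proteins had 2 called each way, in place of 1 higher, and 1 mitochondrial ribosomal protein gene and 1 noradrenergic marker were called lower, in place of none.

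**Figure D4:**
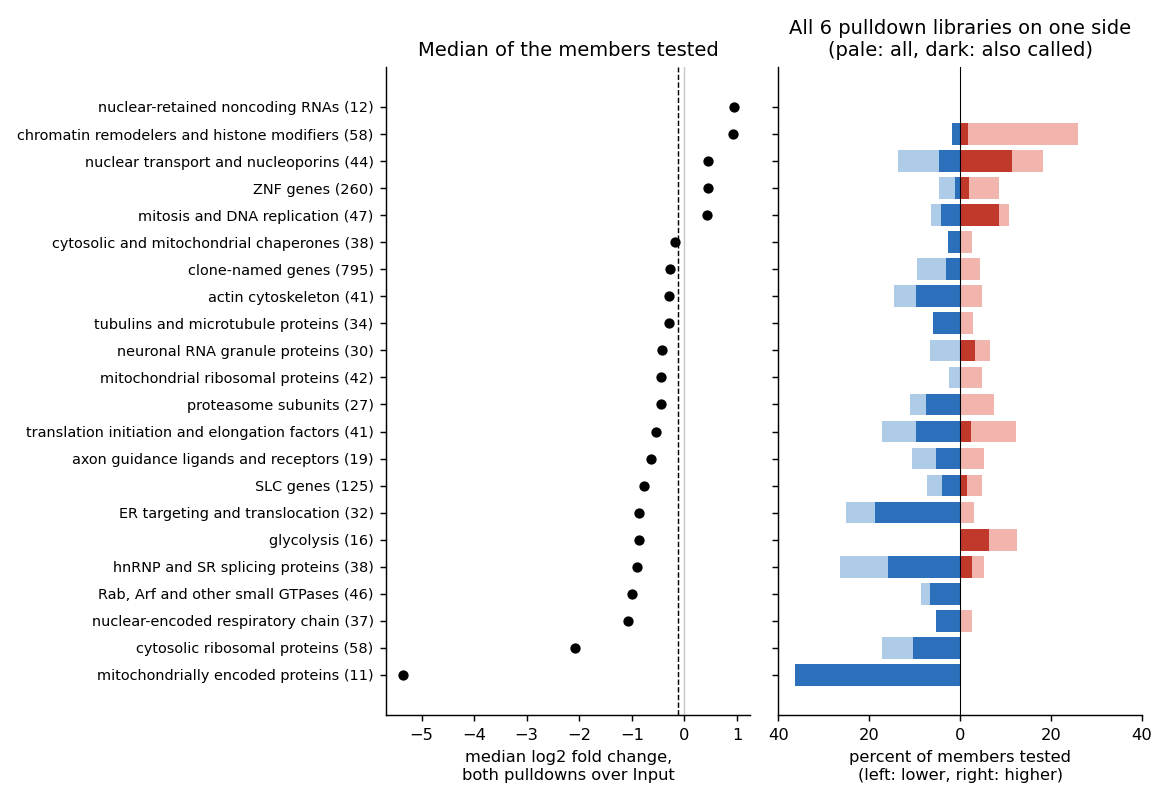
Left, the median log2 fold change of both pulldowns over Input for each list (number of tested members in brackets), with the median of all tested genes, -0.13, as a dashed line. Right, the percent of members with all 6 pulldown libraries above (red) or below (blue) Input, dark where the gene was also called: mitochondrially encoded, ER and splicing genes reach furthest to the left, and chromatin genes reach 25.9% to the right with few of them called.

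In contrast to the shared genes, 120 genes (1.57%) had the 3 libraries of one receptor above all Input libraries and the 3 of the other below. Of these, 29 were above Input in DCC-IP, 91 in Nrp1-IP, and 72 also passed the test between the pulldowns, 14 and 58 by direction. AKAP12, a scaffold of protein kinase A, had 1549, 1153 and 1793 CPM in DCC-IP, with 223, 229.8 and 180.2 CPM in Nrp1-IP and 679, 606 and 756 CPM in Input. FNIP1, a partner of folliculin, had 3514, 3672 and 3011 CPM in DCC-IP, with 528, 556 and 527 CPM in Nrp1-IP and 1565, 1287 and 821 CPM in Input. ATG12, a ubiquitin-like protein of autophagy, showed the reverse, at 464, 355 and 299 CPM in DCC-IP, with 5144, 5827 and 5230.4 CPM in Nrp1-IP and 2405, 2079 and 1414 CPM in Input. That their groups do not overlap follows from the rule that chose these genes. Changes in opposite directions offset each other in their pooled log2 fold changes, which were -0.27, 0.14 and -0.47. The difference between Nrp1-IP and DCC-IP, by whose p these genes were picked, was -2.83, -2.66 and 3.86, with adjusted p of 0.000606, 0.000699 and 0.000219 from edgeR. NUTF2, which carries Ran into the nucleus, was called lower over both pulldowns (log2 fold change -1.15, edgeR adjusted p = 0.0229) although Nrp1-IP lay above Input, with 5149.6 ± 664 against 3058 ± 1020.5 CPM (SD, n = 3 each).

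**Figure D5:**
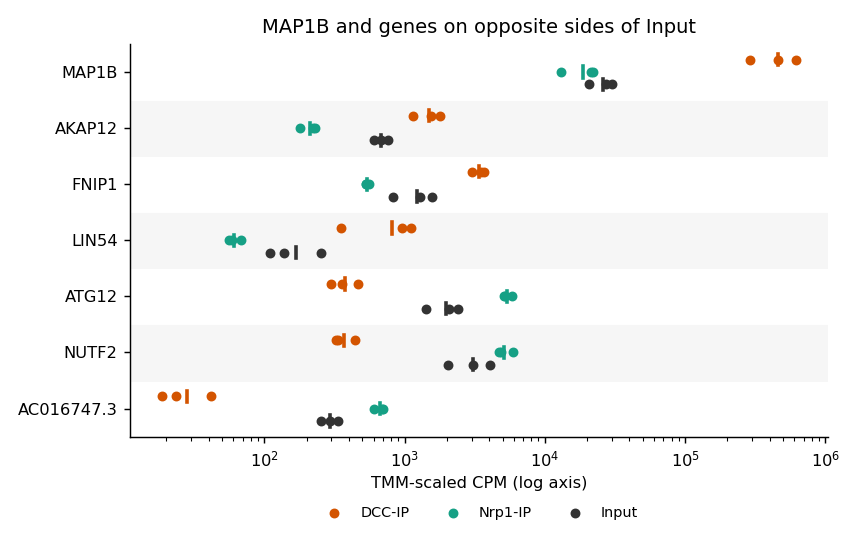
Level (TMM-scaled CPM, log axis) of MAP1B and 6 genes with the 2 pulldowns on opposite sides of Input; points are libraries, ticks are group means. MAP1B lies between 290328 and 618511 CPM in DCC-IP and near Input in Nrp1-IP, while ATG12, NUTF2 and AC016747.3 lie above Input in Nrp1-IP and below it in DCC-IP.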

How the data were processed

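RNA-seq libraries of DCC-IP, Nrp1-IP and Input from SH-SY5Y cells, 3 each, were grouped by their labels. The authors aligned reads with HISAT2 2.1.0 to hg19 and counted them with HTSeq 0.11.0, and the deposited values are raw counts per gene symbol. The annotation and strand setting are not given in the sources used here. HTSeq's summary lines were left out. The authors give at least 3 biological replicates, each independent, as the general rule of their experiments. The labels do not say that these replicates were separate cultures. The p-values measure only the spread between these samples, part of which may be technical.

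All 9 libraries were fitted in edgeR 4.0.16 (R 4.3.3) with filterByExpr (minimum count 10), TMM, glmQLFit and glmQLFTest, on the contrast of the mean of both pulldowns, weight 0.5 each, minus Input. The standard error is the size of the log2 fold change divided by the root of F. Same-numbered libraries deviated together in all 9 pairs (correlation 0.105 to 0.545, mean 0.286), and 8 libraries correlated best with one of their own number. Deviations were taken from each group's mean, so the mean of -0.142 for other numbers follows from this and adds nothing. The pairs of replicate 3 were highest (0.460 to 0.545). Replicates 1 and 2 were less distinct, with 0.188 between Nrp1-IP 2 and Input 1 against 0.105 between Nrp1-IP 2 and Input 2. The block on the replicate number is therefore given as an alternative fit only, and whether it is a true pairing is not known. Alternatives used DESeq2 1.42.0, other scalings and filters, and each library left out. Floors and errors of counts cover counting error only, and no molecular identifiers are described.

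Genes named are the 8 with the smallest p each way (mean at least 50 CPM, RefSeq symbol), the 5 with the highest level each way, the receptors, MAP1B, up to 4 shared members per list and 3 opposite genes each way; of these, values are given mainly for genes that kept their call with each library left out. Some results are not reported here. The members and lists were chosen with earlier results of these data known. Symbols and gene types came from RefSeq (GRCh38.p14), which matched 6280 of the 7628 tested genes (82.3%); no coordinates, lengths or sequences were used, and the planned protein features were not run.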

Additional observations from a re-analysis of the deposited data

Results flagged for a closer look

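The difference between the pulldowns passed edgeR's quasi-likelihood test for 21 of the 84 named genes, and for 278 of all 7628 tested genes (3.64%). Values are log2 differences, Nrp1-IP minus DCC-IP. The named genes on opposite sides of Input were picked by the p of this same test among genes that passed it. That they passed therefore follows from the choice and is no further result. Groups of 3 libraries were not tested for a library far from the others. Among shared lower genes, Nrp1-IP was the lower for YWHAE (-1.30), CNN3 (-1.69), TRA2A (-1.51), HNRNPH1 (-1.69) and the ribosomal protein gene RPL27 (-3.63), and the higher for CBX5 (1.61), ARPC4 (2.64), SRPRB (3.05), BAG4 (1.83), RAP2C (1.25), the survivin gene BIRC5 (2.01), the ribosomal protein gene RPL38 (1.73) and the clone-named AC087645.1 (2.03). None of the genes from CBX5 to AC087645.1 was called lower in Nrp1-IP on its own (edgeR adjusted p from 0.0759 to 0.538). RPL27 was not called in DCC-IP on its own (edgeR adjusted p = 0.362). With library size only, ARPC4, BIRC5 and AC087645.1 were not shared. BIRC5 and AC087645.1 moved together over the libraries, with 3859, 6544 and 5679 CPM for BIRC5 in Nrp1-IP and 1267, 2115 and 1843 CPM for AC087645.1. Whether they share reads was not tested, so they may not be separate results. PCNT, higher in both, was lower in Nrp1-IP (-2.50). MAP1B (-4.60) and the genes on opposite sides of Input also differed: AKAP12 (-2.83), FNIP1 (-2.66), LIN54 (-3.74), ATG12 (3.86), NUTF2 (3.81) and AC016747.3 (4.58).

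The test was passed in all 9 fits that left out 1 library for ARPC4, SRPRB, BAG4, BIRC5, AC087645.1, MAP1B and the 6 genes on opposite sides, which were picked by this test. It was passed in 7 fits for HNRNPH1, 6 for YWHAE and CBX5, 5 for TRA2A, 4 for PCNT, 3 for RPL38 and RAP2C, 2 for CNN3 and 1 for RPL27.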

How the results depend on the processing

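Counts are given as genes called higher, called lower, shared higher and shared lower, 129, 340, 128 and 263 in the report. They were 284, 207, 275 and 153 with library size only, 503, 647, 366 and 407 with DESeq2, 26, 98, 26 and 98 with the pulldowns as 1 group of 6, and 49, 198, 48 and 177 without DCC-IP replicate 1 and Input replicate 1, a setting added after seeing the data. With no filter, 214 were called higher and 640 lower, and with a minimum count of 50, 219 were called higher and 210 shared higher. With the replicate number as a block, 242 and 559 were called and 207 shared higher. When each pulldown had to be called on its own, 18 and 82 genes were shared. Leaving out 1 library gave 32 to 206 called higher, 136 to 575 called lower, 31 to 200 shared higher and 117 to 366 shared lower. Of the shared genes, 30 differed between the pulldowns, against 64 with DESeq2, 47 with a minimum count of 50, 57 with the block, 19 without DCC-IP replicate 1 and Input replicate 1, and 9 to 35 with 1 library left out. The cause was not tested.

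RLE factors and leaving MAP1B out of the scaling moved no count by over 1.5 times. Under all 18 alternatives, 14 higher and 75 lower genes were shared. The block kept 260 of the 263 shared lower genes. Of 1502 values of named genes, none changed sign and 200 lost their call. The coefficient of variation was 1.0 with 3 libraries a group, which limits the calls, and the part of the amplification in this spread was not tested. The comparison of encoded proteins was not run.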
